A study of Mus musculus with 6 samples.

Results

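The 10 genes described here encode keratins of the luminal, or simple, epithelial type (Krt7, Krt8, Krt18, Krt19 and Krt20) and uroplakins (Upk1a, Upk1b, Upk2, Upk3a and Upk3b). They were taken by name, 10 of the 51912 genes in the table. The samples were C57BL/6 mouse bladder tumor organoids, tumor cells cultured so that they build small multicellular bodies. RNA was sequenced from 3 libraries treated with SRT1720, a compound made to stimulate the protein deacetylase SIRT1, and from 3 given vehicle. The sources used here do not give the dose, the time or the tumor of origin. Nor do they say whether replicates came from different cultures or mice, so the tests reflect library-to-library spread, which may be technical. A second description sets the libraries in which Krt5, the basal keratin, was under 100 TPM beside the rest. Krt5 was at 16.4 TPM in SRT1720 1 and 9.61 TPM in Vehicle 2, and between 425 and 1120 TPM in the other 4 libraries. That division was chosen from measured values, so it is given with no test.

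Keratins form intermediate filaments from pairs, in which a type II chain (Krt7, Krt8) joins a type I chain (Krt18, Krt19, Krt20). In the bladder lining, basal cells are known for Krt5 and Krt14, luminal cells for Krt8 and Krt18, and the outermost umbrella cells for Krt20 and uroplakins. Uroplakins are membrane proteins that assemble into rigid plaques on the urine-facing surface. The tetraspanins Upk1a and Upk1b pair with partners, Upk2 for Upk1a and Upk3a or Upk3b for Upk1b.

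Between 18295271 and 22894784 reads were recovered for each library. Levels are given in TPM, as deposited, although the columns sum to only 161231 to 171577. The deviations of each library from its group mean went with those of 1 library of the other group, SRT1720 1 with Vehicle 2, SRT1720 2 with Vehicle 1 and SRT1720 3 with Vehicle 3 (correlations 0.72, 0.68 and 0.79 over 9287 genes, which are not independent). The summed TPM of the mitochondrial ribosomal RNAs was 702 in SRT1720 3 and 1562 in Vehicle 3, against 135 to 198 in the others. In the same 2 libraries the median deviation of chromosome 3 genes was −0.39 and −0.41 on the log2 scale, and it was 0.13 to 0.26 in the others. None of the 10 genes lies on chromosome 3.

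Krt8 and Krt18 lie close together on chromosome 15 of GRCm38. Krt8 (ENSMUSG00000049382) lies from 101996698 to 102004482 on the minus strand, Krt18 (ENSMUSG00000023043) from 102028180 to 102032027 on the plus strand, with 23697 bases between them. Krt7 (ENSMUSG00000023039) lies on the same chromosome from 101411043 to 101430313, and Upk3a (ENSMUSG00000022435) from 85017141 to 85022547. Krt19 (ENSMUSG00000020911, from 100140810 to 100148665) and Krt20 (ENSMUSG00000035775, from 99428403 to 99438150) lie on chromosome 11. Upk1a (ENSMUSG00000006313) lies on chromosome 7 from 30603092 to 30612847, and Upk1b (ENSMUSG00000049436) on chromosome 16 from 38773184 to 38800328. Upk2 (ENSMUSG00000041523) lies on chromosome 9 from 44452715 to 44454976, and Upk3b (ENSMUSG00000042985) on chromosome 5 from 136038496 to 136046487.

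RefSeq promoter sequences (GRCm38.p6) were matched for 7 of the 10 genes, and not for Krt19, Upk1b and Upk2. The windows of the partners Krt8 and Krt18 are shown because their levels separated between libraries, and those of Krt20 and Upk3a because these umbrella cell genes were at or near 0. Each window covers 250 bases before the RefSeq start, 5′ to 3′ on the strand of the gene. The last 140 bases for Krt8 and the last 36 for Krt18 are left out because GENCODE places an exon there, which leaves chr15:102004483-102004592 on the minus strand for Krt8, chr15:102027966-102028179 on the plus strand for Krt18, chr11:99438154-99438403 on the minus strand for Krt20 and chr15:85016891-85017140 on the plus strand for Upk3a. Capitals mark matches, on either strand, to 7 motifs, which are spelled out with their matches after the sequences.
Krt8: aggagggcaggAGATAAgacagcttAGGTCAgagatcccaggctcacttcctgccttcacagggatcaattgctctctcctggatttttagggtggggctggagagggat
Krt18: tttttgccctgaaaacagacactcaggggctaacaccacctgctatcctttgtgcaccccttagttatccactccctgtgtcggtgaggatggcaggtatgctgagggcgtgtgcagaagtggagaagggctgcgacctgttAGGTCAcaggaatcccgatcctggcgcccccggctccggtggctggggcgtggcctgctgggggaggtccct
Krt20: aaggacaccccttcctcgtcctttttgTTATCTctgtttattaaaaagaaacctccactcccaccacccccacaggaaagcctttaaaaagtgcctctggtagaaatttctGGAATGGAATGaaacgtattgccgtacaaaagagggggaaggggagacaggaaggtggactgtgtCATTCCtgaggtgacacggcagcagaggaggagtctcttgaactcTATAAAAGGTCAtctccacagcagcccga
Upk3a: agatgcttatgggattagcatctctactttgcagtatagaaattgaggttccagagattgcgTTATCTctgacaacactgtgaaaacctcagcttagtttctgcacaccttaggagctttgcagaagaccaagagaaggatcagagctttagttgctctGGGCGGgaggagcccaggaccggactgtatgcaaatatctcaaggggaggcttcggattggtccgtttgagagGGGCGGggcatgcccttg

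AGGTCA, the element read by nuclear receptors, occurred in the windows of Krt8, Krt18, Krt20 and Upk3b, and in 14.0% of all 32851 promoter windows of 250 bases. AGATAA, which GATA factors bind, occurred in those of Krt8, Krt20 and Upk3a, and in 9.99% of all windows. GGAATG, which TEAD factors bind, occurred 3 times in the Krt20 window, with 2 matches that share a base, once in that of Upk3b, and in 12.6% of all windows. The GC box GGGCGG occurred in the windows of Krt7 and Upk3a and in 32.7% of all, and the TATA box TATAAA in that of Krt20, next to its AGGTCA element, and in 12.4% of all. GENCODE places exons of Krt7 over 162 of the 250 bases of its window. Every GC box there lies after the first 82 bases, which come before those exons. The AP-1 motif TGAGTCA and the forkhead motif TGTTTAC were in none of the 7 windows, against 4.46% and 3.17% of all, and the Upk1a window held none of the motifs. These matches describe letters and not binding.

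The luminal keratins other than Krt20 reached a mean of 1 TPM, whereas only 1 of the 5 uroplakins, Upk1b, did so. The 5 genes past that filter were Krt7, Krt8, Krt18, Krt19 and Upk1b, and the 5 below it were Krt20, Upk1a, Upk2, Upk3a and Upk3b. In single libraries Krt7 fell to 0.803 TPM (SRT1720 3) and 1.82 TPM (Vehicle 3). Mean levels over the 6 libraries were 91.3 TPM for Krt18, 46.4 TPM for Krt8, 44.2 TPM for Krt19, 9.80 TPM for Krt7 and 5.15 TPM for Upk1b. Neighbors in this order overlapped over the libraries, except Krt19 and Krt7, whose ranges did not meet. TPM is a level per length, and the length recovered for Krt7 was 9449 bases, against 1400 to 2862 for the other keratins here, so the low place of Krt7 depends on that length. Against the name of the group, 4 of the 5 keratins and 1 of the 5 uroplakins passed the filter, Upk1a had 19 to 90 reads, and Krt20, Upk2, Upk3a and Upk3b had at most 25.

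**Figure D1:**
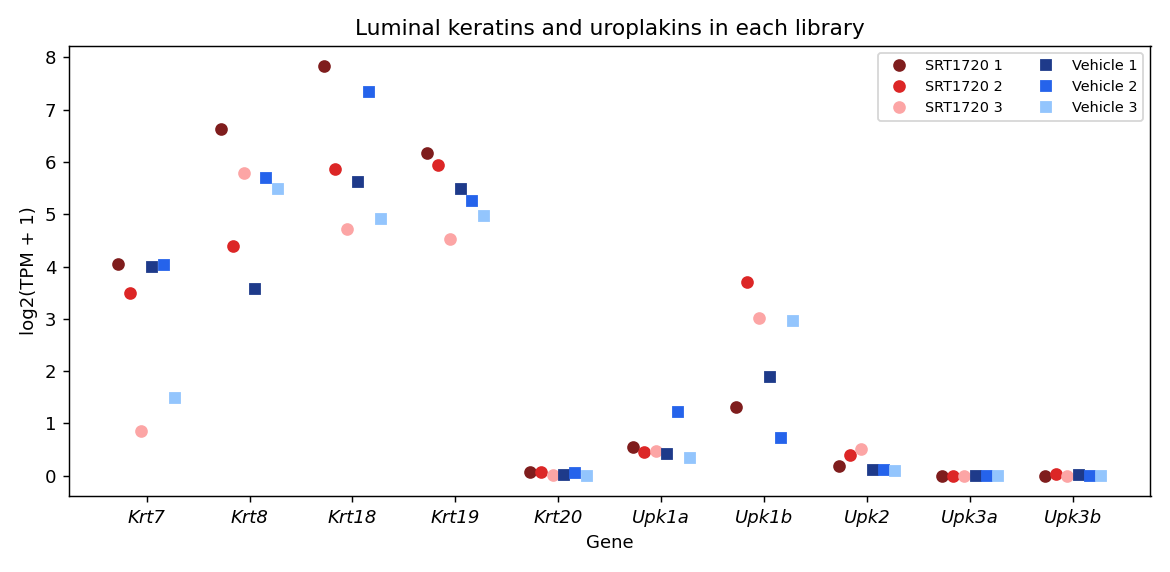
Level of each of the 10 genes, as log2(TPM + 1), in each of the 6 libraries (circles SRT1720, squares Vehicle). Krt18 is highest in SRT1720 1 and Vehicle 2, Krt7 is lowest in SRT1720 3 and Vehicle 3, and Krt20, Upk2, Upk3a and Upk3b lie near 0.

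Krt18, the type I keratin of simple epithelium, was at 226 TPM in SRT1720 1, 57.6 TPM in SRT1720 2, 25.3 TPM in SRT1720 3, 48.0 TPM in Vehicle 1, 162 TPM in Vehicle 2 and 29.2 TPM in Vehicle 3. Both libraries with low Krt5 were above the other 4, and the lower of them was 2.81 times the highest of the others. Over the 6 libraries, the highest value of Krt18 was 8.94 times the lowest. The SD of its log2(TPM + 1) was 1.27, larger than in 98.9% of the 9287 genes tested.

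Krt8, its type II partner, was at 98.3, 20.03 and 54.5 TPM across SRT1720 replicates 1 to 3, set beside 10.8, 50.6 and 43.9 TPM across Vehicle replicates 1 to 3. Here SRT1720 2 and Vehicle 1 were the low libraries, and SRT1720 3 and Vehicle 3 were near Vehicle 2. The libraries with low Krt5 therefore overlapped the others in Krt8, unlike in Krt18. The ratio of Krt8 TPM to Krt18 TPM was 0.434, 0.348 and 2.15 in SRT1720 1, 2 and 3 and 0.225, 0.313 and 1.51 in Vehicle 1, 2 and 3. Krt8 thus exceeded Krt18 in SRT1720 3 and Vehicle 3 and was below it in the other 4 libraries. The order of the libraries in this ratio does not depend on the gene lengths.

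The processed pseudogene Krt8-ps on chromosome 7 matches the Krt8 transcript over 941 bases at 98.6% identity, so reads could be split between them. Its reads were 17.3% to 23.5% of those of Krt8 in every library. With its reads added, the ratio of Krt8 reads to Krt18 reads was 0.658, 0.535 and 3.27 in SRT1720 1, 2 and 3 and 0.341, 0.498 and 2.32 in Vehicle 1, 2 and 3, and the order of the libraries was the same. A pseudogene of Krt18, Gm5200 on chromosome 13, matches over 1267 bases at 90.5% identity and is not among the 51912 genes with values. Genes annotated on the opposite strand overlap Krt7 (Gm671) and Krt8 (Gm36026), and these also have no values of their own. Without a stated strand setting, the reads of overlapping genes cannot be told apart. No other gene aligned to one of the 10 over 500 bases or more at 90% identity or more.

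**Figure D2:**
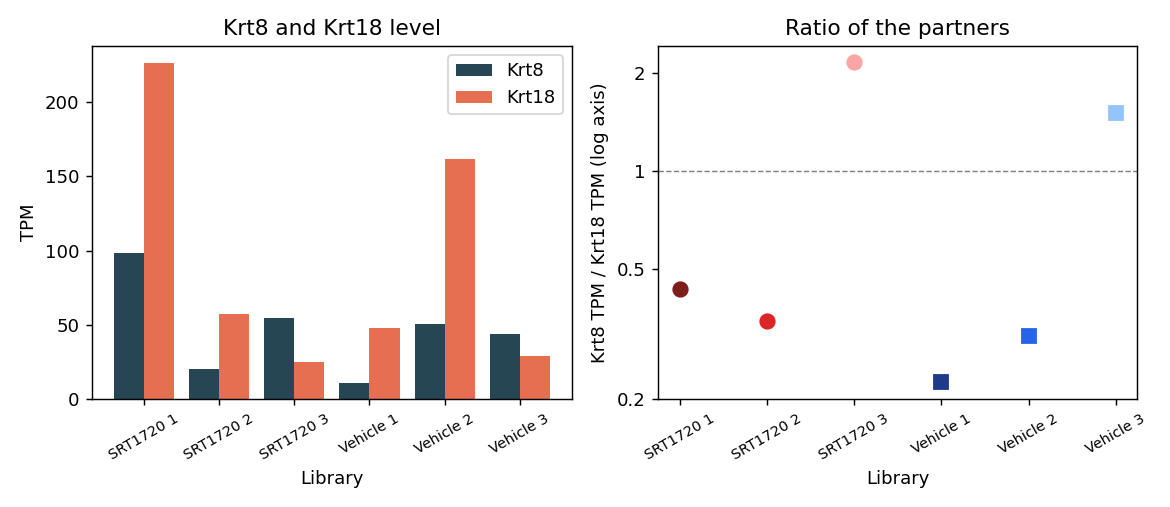
Left, bars of Krt8 and Krt18 TPM in each library. Right, the ratio of Krt8 TPM to Krt18 TPM on a log axis, with a dashed line at 1, which is 2.15 in SRT1720 3 and 1.51 in Vehicle 3 and at most 0.434 elsewhere.

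Markers of other cells were read in the libraries with the lowest Krt8. The summed TPM of 15 leukocyte markers was 11.8 in SRT1720 2 and 16.6 in Vehicle 1 and 1.19 to 3.14 in the other 4 libraries. Most of it was Lyz2, a lysozyme gene of macrophages, at 10.5 and 14.3 TPM and listed at 0 in the others. Cd68, another macrophage gene and the only other one past the filter, did not follow it, at 0.730 TPM in SRT1720 2, 1.45 TPM in Vehicle 1 and 1.03 to 3.09 TPM in the others. The groups did not overlap in Cd68, with SRT1720 lower, as in 7.75% of genes tested, and its limma adjusted p was 0.359. Of the list 2 of 15 genes passed the filter, and Cd3e, Cd3d and Ms4a1, which define T and B cells, were at 0 in all libraries. The summed TPM of 10 fibroblast markers was 2.83 and 4.20 in these 2 libraries and 0.0708 to 0.596 in the others, and 0 of 10 passed the filter. The part of these cells in the Krt8 values was not tested, and in bulk RNA fewer cells of a type and less RNA per cell cannot be told apart.

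Krt7, a type II keratin of ducts and urothelium, was at 15.6, 10.3 and 0.803 TPM across SRT1720 replicates 1 to 3, set beside 14.9, 15.4 and 1.82 TPM across Vehicle replicates 1 to 3. SRT1720 3 and Vehicle 3 stood far below the other 4 libraries, with 418 and 885 reads against 5493 to 8292. Both libraries with low Krt5 were above the rest, but the lower of them was only 1.03 times Vehicle 1. The highest value was 19.4 times the lowest, and the SD of log2(TPM + 1), at 1.43, was larger than in 99.3% of genes tested. The 2 low libraries are those with high mitochondrial ribosomal RNA and low chromosome 3 genes, whose part in this was not tested. Genes of chromosome 15, where Krt7 lies, had medians of −0.02 and −0.01 (log2) in them.

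Krt19, a type I keratin found in both basal and luminal urothelial cells, was the most even of the 5. It was at 71.3, 60.7 and 22.1 TPM across SRT1720 replicates 1 to 3, set beside 43.8, 37.0 and 30.3 TPM across Vehicle replicates 1 to 3. The highest value was 3.22 times the lowest, and the libraries with low Krt5 overlapped the rest. The SD of log2(TPM + 1) for Krt19, at 0.61, was the smallest of the 5 but larger than in 90.8% of genes tested. SRT1720 3 and Vehicle 3 were again the lowest in each group.

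Upk1b, the tetraspanin that pairs with Upk3a, was lowest in the libraries where Krt18 was highest. It was at 1.47, 12.1 and 7.11 TPM across SRT1720 replicates 1 to 3, set beside 2.72, 0.660 and 6.81 TPM across Vehicle replicates 1 to 3. The libraries with low Krt5 were both below the other 4, and the lowest of the others was 1.85 times the higher of them. The highest value, in SRT1720 2, was 18.4 times the lowest, in Vehicle 2, and rested on 1210 reads against 55. Upk1b held 70.9% to 95.4% of the summed uroplakin TPM in 5 libraries and 31.7% in Vehicle 2.

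Over the 5 genes past the filter, 2 (Krt7 and Krt18) were above the other 4 libraries in both libraries with low Krt5, 1 (Upk1b) was below, and 2 (Krt8 and Krt19) overlapped. Of all 9287 genes tested, 16.2% were above and 12.3% below in the same sense. The division came from values of these libraries, and nothing is read from these counts. Upk1a, below the filter, was also above in both, by 1.18 times, and among the 27713 genes above 0 in any library 19.8% lay wholly on one side.

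The share of keratin RNA held by the luminal keratins is given as a description, since Krt5, which made the division, is in its denominator. The 5 luminal keratins held 75.2% of the summed TPM of 23 keratin genes in SRT1720 1 and 75.5% in Vehicle 2. In SRT1720 2 and SRT1720 3 they held 6.97% and 3.26%, and in Vehicle 1 and Vehicle 3 6.72% and 4.43%. Counted in reads and not per length, the shares were 75.7% and 76.4% in the first 2 libraries and 2.95% to 8.96% in the others. The summed TPM of the luminal keratins was 412 and 265 in SRT1720 1 and Vehicle 2 and 103 to 149 elsewhere, while that of the 18 other keratins was 135 and 85.9 against 1633 to 3053. With Krt5 left out of the other keratins, the luminal share was 77.6% in both SRT1720 1 and Vehicle 2 and 5.05% to 9.80% in the other 4 libraries. The ratio of type II to type I keratin TPM was 0.451 in SRT1720 1 and 0.365 in Vehicle 2 and 0.972 to 1.24 in the other 4 libraries. Krt5 is in the numerator of this ratio, so its separation of the libraries is not apart from the division. The ratio was not taken without Krt5, so no difference between the libraries in type II against type I keratins is read from it.

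**Figure D3:**
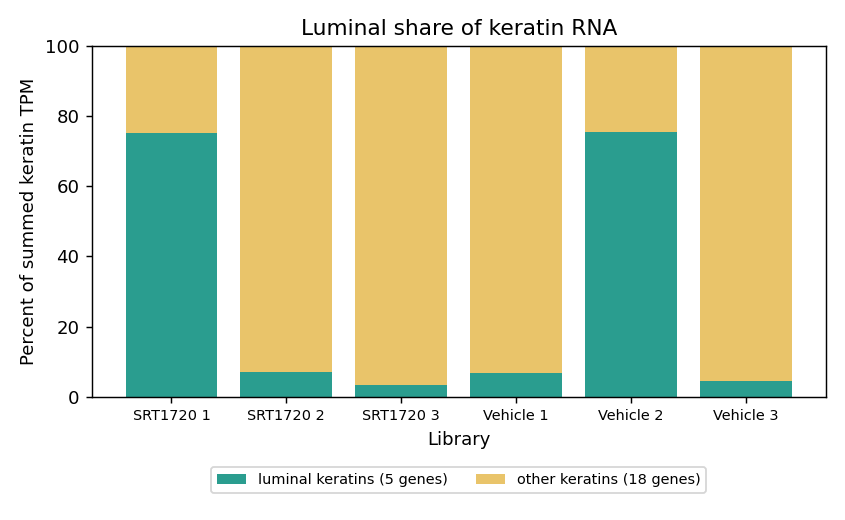
Bars show, for each library, the percent of summed keratin TPM held by the 5 luminal keratins and by the 18 other keratins. The luminal share is 75.2% in SRT1720 1 and 75.5% in Vehicle 2 and 3.26% to 6.97% in the other 4 libraries.

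The umbrella cell genes gave few reads, so their levels are set by counting error. Upk3a, a plaque protein that spans the membrane, had 0 reads in all 6 libraries, which allows up to 0.0466 to 0.0582 TPM by the limit of 3 reads. Upk3b, its relative, had 4 reads in SRT1720 2, 3 reads in Vehicle 1 and 0 in the others. Krt20, the umbrella cell keratin, had 6, 5 and 1 reads in SRT1720 1, 2 and 3 and 1, 3 and 0 in Vehicle 1, 2 and 3. Its two-sided exact Poisson 95% intervals of 2.20 to 13.1 reads in SRT1720 1 and 0 to 3.69 reads in Vehicle 3 overlap. That upper bound is above 3 reads because the limit of 3 reads is one-sided. Such intervals cover counting error only.

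Upk1a, the tetraspanin that pairs with Upk2, had 36, 30 and 31 reads in SRT1720 1, 2 and 3 and 28, 90 and 19 in Vehicle 1, 2 and 3. Vehicle 2 stood above the rest, with an exact Poisson 95% interval of 72.4 to 111 reads against at most 49.8 in another library. In TPM these were 0.469, 0.375 and 0.396 with SRT1720 and 0.334, 1.34 and 0.260 with vehicle. The exact two-sided permutation p between the groups was 1 for Upk1a and Upk3b and 0.2 for Krt20. Upk1a was highest in the library where Upk1b was lowest.

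Upk2, the partner of Upk1a, was at 0.137, 0.311 and 0.419 TPM across SRT1720 replicates 1 to 3, set beside 0.0783, 0.0783 and 0.0717 TPM across Vehicle replicates 1 to 3. The groups did not overlap, with 8, 19 and 25 reads against 5, 4 and 4. By an exact two-sided permutation test p = 0.1, the smallest that 3 libraries against 3 can give, and the log2(TPM + 1) difference was 0.25 (SE 0.08, n = 3 per group). In SRT1720 1 the exact Poisson 95% interval of 3.45 to 15.8 reads overlaps those of all vehicle libraries. Upk2 was below the filter, so this difference came from the fit with the filter lifted (unadjusted 95% interval 0.04 to 0.46). That fit called 0 of 27713 genes by adjusted p. Upk2 was the only one of the 10 genes whose groups did not overlap. The share with SRT1720 above Vehicle was 6.77% of the 27713 genes above 0 and 12.1% of the 9287 tested.

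**Figure D4:**
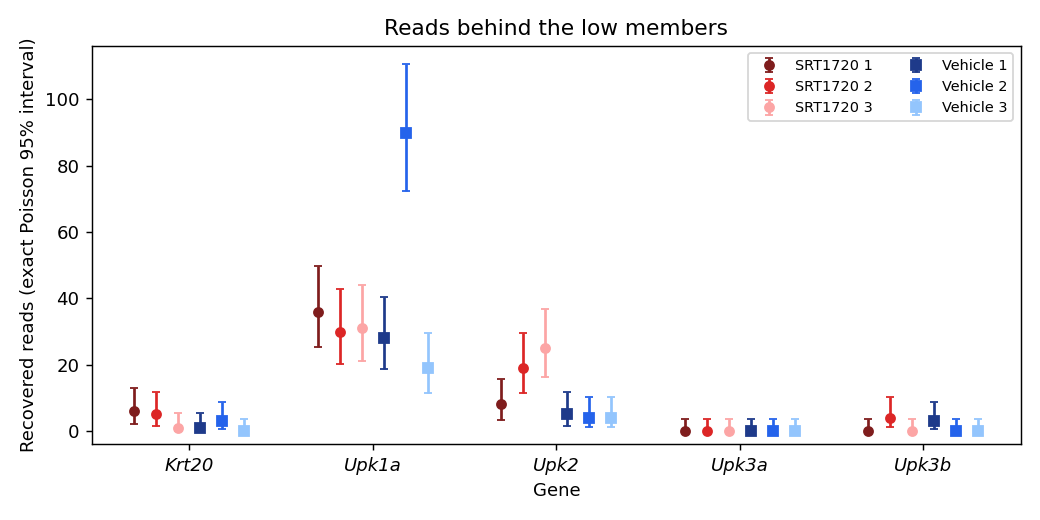
Recovered reads of the 5 genes below the filter in each library, with exact Poisson 95% intervals (circles SRT1720, squares Vehicle). Upk1a reaches 90 reads in Vehicle 2, Upk2 has 8 to 25 reads with SRT1720 and 4 to 5 with vehicle, and Upk3a has 0 throughout.

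Between SRT1720 and vehicle, none of the 5 genes past the filter passed limma's test, and their groups overlapped in all 5. The fit was unpaired, so its SEs include the differences that libraries shared across the groups. Those matches were read from the values, and no fit took them as pairs. Krt18 averaged 103 ± 108 TPM under SRT1720, set beside 79.6 ± 71.6 TPM under vehicle (mean ± SD, n = 3). Its log2 fold change was 0.18 (SE 0.90), with a 95% interval from −1.98 to 2.34 and limma adjusted p = 0.961. Krt8 was at 57.6 ± 39.2 against 35.1 ± 21.3 TPM, with a log2 fold change of 0.69 (SE 0.74, 95% interval −1.07 to 2.46) and limma adjusted p = 0.766. These intervals hold changes in both directions, so they do not show that the levels were alike.

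Krt19 averaged 51.4 ± 25.9 TPM under SRT1720, set beside 37.0 ± 6.75 TPM under vehicle, with a log2 fold change of 0.32 (SE 0.44, 95% interval −0.73 to 1.36, limma adjusted p = 0.827). Krt7 was at 8.89 ± 7.48 against 10.7 ± 7.69 TPM, with −0.37 (SE 1.01, 95% interval −2.77 to 2.03, limma adjusted p = 0.921). Upk1b was at 6.91 ± 5.33 against 3.397 ± 3.13 TPM, with 0.82 (SE 0.75, 95% interval −0.98 to 2.61, limma adjusted p = 0.709). The signs of Krt18 and Krt7 depended on single libraries. Krt18 was at −0.66 without SRT1720 1 and −0.34 without Vehicle 3, and Krt7 at 0.60 without SRT1720 3, 0.04 without Vehicle 1 and 0.06 without Vehicle 2. The sizes of the other 3 did too, with Krt8 at 0.02 without Vehicle 1, Krt19 at 0.0054 without SRT1720 1 and Upk1b at 0.25 without Vehicle 2.

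Of the 5 genes, 4 lay above 0 on the log2 scale and 1 lay below, and their median of 0.32 stands beside 0.035 over all genes tested. By limma's adjusted p, 0 of the 5 passed, and 0% of the 9287 genes tested. At an unadjusted p under 0.05 the numbers were 0 of the 5 and 12.4% of all, and voom on the recovered reads also called 0 genes, with 1120 at an unadjusted p under 0.05. Groups did not overlap in 0 of the 5, and in 19.9% of all genes tested. Over all 10 genes the count without overlap was 1 (Upk2). The share over the 27713 genes above 0 was then 12.3%, and it rises by construction when libraries are left out. The count was 2 without SRT1720 1 and 2 without SRT1720 2, where that share was 21.0% and 16.8%. It was 3 without SRT1720 3 and 3 without Vehicle 2, where the share was 20.3% and 20.2%. Without both libraries with low Krt5 the count was 4 beside 30.1% of all, and the median log2 fold change was 0.03. Without SRT1720 3 and Vehicle 3, those with low chromosome 3 genes, the count was 3 beside 29.7% and the median 0.70. Nothing particular to the 10 genes is read from these counts.

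**Figure D5:**
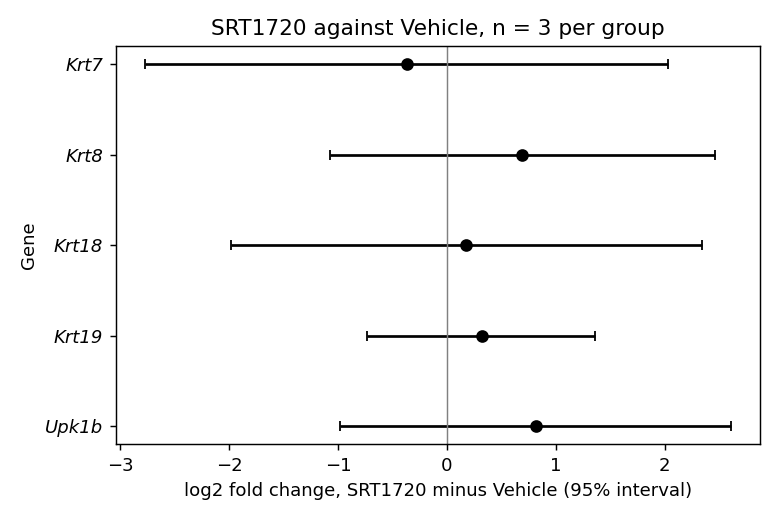
Points are log2 fold changes of SRT1720 minus Vehicle on log2(TPM + 1) for the 5 genes past the filter, with 95% intervals from limma (n = 3 per group). All 5 intervals include 0, from −0.37 for Krt7 to 0.82 for Upk1b.

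The other keratins, of simple and stratified epithelium and not only of basal cells, were set beside the luminal ones. Between SRT1720 and vehicle, 0 of the 10 past the filter (18 in the list) were called, 9 lay above 0, and their median log2 fold change was 0.58. The most abundant were Krt5, Krt17, Krt14, Krt6a and Krt15. Krt14, the partner of Krt5, was at 18.7, 443 and 693 TPM across SRT1720 replicates 1 to 3, set beside 307, 18.9 and 289.8 TPM across Vehicle replicates 1 to 3. Krt15, a type I keratin of basal cells, was at 138 TPM in SRT1720 2 and 58.5 TPM in Vehicle 1 and between 0.311 and 1.58 TPM in the other 4 libraries.

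Most basal and squamous markers past the filter were low where Krt18 was high. Of 14 basal urothelial markers, 12 were below the other 4 libraries in both SRT1720 1 and Vehicle 2, and of 13 squamous differentiation markers past the filter 9 were below and 1 above, beside 12.3% of all genes tested below and 16.2% above. Their summed TPM was 139 and 107 in these 2 libraries against 1209 to 2658 for the basal list, and 106 and 88.3 against 548 to 853 for the squamous list. Both lists hold keratins, and the basal list holds Krt5, which made the division. Their part in the Krt18 values was not tested.

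Of 18 transcription factors of luminal urothelium, 12 passed the filter and 0 were called. Their median log2 fold change was 0.12, and 8 lay above 0. Foxa1, a pioneer factor, was at 18.5, 20.9 and 6.21 TPM across SRT1720 replicates 1 to 3, set beside 11.2, 9.94 and 4.17 TPM across Vehicle replicates 1 to 3, so that SRT1720 3 and Vehicle 3 were lowest, as for Krt7. Klf5, a Krüppel-like factor, ranged from 24.6 to 29.7 TPM under SRT1720, below its 30.5 to 35.6 TPM under vehicle. It was the 1 member whose groups did not overlap, with SRT1720 lower, as in 7.75% of genes tested, and its limma adjusted p was 0.643. The other most abundant factors were Cebpb, Klf4 and Ehf, with log2 fold changes of −0.67, 0.24 and 0.53 and limma adjusted p = 0.666, 0.699 and 0.657. Cebpb was also lowest in SRT1720 3 and Vehicle 3, at 10.3 and 12.2 TPM. Klf4 was instead highest in them, at 11.2 and 8.02 TPM, and Ehf was lowest in Vehicle 2, at 2.09 TPM.

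The list of other luminal genes holds surface and junction genes, among others. Of 20 past the filter, 7 were above the other 4 libraries in both SRT1720 1 and Vehicle 2 and 3 were below, beside 16.2% and 12.3% of all genes tested. The most abundant were Epcam, Cdh1, Cldn4, Sprr1a and Aqp3. Cldn4, a tight junction claudin, was at 57.5 and 66.3 TPM in these libraries and at 11.04 to 22.3 TPM in the others. Epcam, an epithelial adhesion gene, instead reached 191 TPM in SRT1720 3 and 177 TPM in Vehicle 3, while the other 4 libraries lay between 69.4 and 106 TPM. Sprr1a, a cornified envelope gene, was above in both low-Krt5 libraries, at 41.9 and 57.9 TPM against 1.51 to 17.1 TPM. Aqp3, a water channel gene, was below in both, at 1.35 and 0.274 TPM against 2.71 to 62.5 TPM. Cdh1, which encodes E-cadherin, was at 14.5 TPM in Vehicle 1 and 19.0 TPM in SRT1720 2, the 2 libraries with the lowest Krt8, and at 36.7 to 56.5 TPM in the others. None of the 20 was called between SRT1720 and vehicle, and their median log2 fold change was 0.03. In 1 of them, Fabp5, the groups did not overlap, with SRT1720 higher, beside 12.1% of genes tested. Upk3bl, a relative of Upk3b named after its values were seen, was at 0.225 and 0.246 TPM in SRT1720 1 and Vehicle 2 and at 1.40 to 9.13 TPM in the others.

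Of 18 genes for carrying uroplakins to the apical membrane, 10 passed the filter and 0 were called, with a median log2 fold change of 0.11. The most abundant were Mal2, Vamp8, Rab8a, Rab11a and Mal, and of these Mal2 and Rab8a were above the other 4 libraries in both SRT1720 1 and Vehicle 2 while the other 3 overlapped. Mal2, an apical transport protein gene, was at 29.3 TPM in SRT1720 1 and 21.4 TPM in Vehicle 2 and at 5.19 to 9.69 TPM in the others. Mal was at 4.96, 2.84 and 1.27 TPM across SRT1720 replicates 1 to 3, set beside 9.52, 4.08 and 3.48 TPM across Vehicle replicates 1 to 3. Snx31, a sorting nexin that binds uroplakins and was named after its values were seen, had 1 read in all, in Vehicle 1.

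Keratin linkers, such as plakins and desmosomal plaque proteins, hold keratin filaments to junctions and to each other. Of 15 past the filter, 8 were below the other 4 libraries in SRT1720 1 and Vehicle 2 and 1 was above, beside 12.3% and 16.2% of all genes tested, and 0 were called between SRT1720 and vehicle. In 1 of them, Fbf1, named after its values were seen, the groups did not overlap, with SRT1720 lower, as in 7.75% of genes tested. Dsp, which anchors keratins to desmosomes, was at 6.53 and 7.55 TPM in these 2 libraries and at 15.4 to 37.8 TPM in the others. Of the most abundant, Sfn and Pkp1 were also below, Ywhaz was above, at 26.9 and 26.7 TPM against 21.4 to 25.5 TPM, and Hspb1 overlapped. Among 16 tetraspanins past the filter, the family of Upk1a and Upk1b, 4 were above and 4 were below, beside the same shares, and 0 were called between SRT1720 and vehicle, with a median log2 fold change of −0.13. Cd9, of this family, was at 28.0 and 28.1 TPM in SRT1720 1 and Vehicle 2 against 49.98 to 57.4 TPM. Of the other most abundant, Cd63 was above, at 12.9 and 26.3 TPM against 6.80 to 11.4 TPM, Tspan3 was below, and Tspan14 and Cd81 overlapped.

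Because mesothelium also expresses Upk3b and simple keratins, its markers were read as well. Of 12, 2 passed the filter, Calb2 and Gpm6a were at 0 in all libraries, and 6 were under 0.1 TPM in all. The summed TPM was 60.0 in SRT1720 1 and 82.2 in Vehicle 2 and 11.1 to 24.8 in the others. Most of it was Msln, at 58.6 and 81.0 TPM. The other gene past the filter, Bnc1, lay the opposite way, at 0.402 and 0.274 TPM in these libraries and at 1.13 to 6.77 TPM in the others. The part of mesothelial cells in the Krt18 values was not tested. Of 17 glandular and intestinal markers 3 passed the filter, Agr2, Cdx2 and Hoxb13, and Spink1 and Pbsn were among those at 0 in all. Agr2 was at 7.36, 12.7 and 0.201 TPM across SRT1720 replicates 1 to 3 and 2.80, 9.32 and 0.167 TPM across Vehicle replicates 1 to 3. Cdx2, at 1.60 to 7.34 TPM, was also lowest in SRT1720 3 and Vehicle 3 within each group. Hoxb13, at 0.135 to 2.66 TPM, was highest in those libraries. Their part in the values of the 10 genes was not tested. Of 8 endothelial and 7 smooth muscle markers, 0 passed. The summed TPM of the smooth muscle markers was 4.36 in Vehicle 3 and 0.0828 to 0.300 in the others. Most of it in Vehicle 3 was Acta2, at 4.26 TPM with 391 reads.

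Likeness was measured as the root mean square difference of log2(TPM + 1), centered on each gene, over the 6 libraries and 8070 other protein-coding genes. The genes most like Krt18 were Cldn3 (0.22), Sgms2 (0.23), Fut2 (0.25), Glrp1 (0.28) and Sdcbp2 (0.29). Cldn3, a claudin of tight junctions, was at 5.22 TPM in SRT1720 1 and 3.94 TPM in Vehicle 2, at 0.606 and 0.997 TPM in SRT1720 2 and Vehicle 1, and listed at 0 in SRT1720 3 and Vehicle 3. Those most like Upk1b were Dapl1 (0.26), Car12 (0.40), Fat2 (0.43), Thbs2 (0.45) and Hmgcs1 (0.45). Car12, a membrane carbonic anhydrase gene, was at 2.41, 11.04 and 7.72 TPM across SRT1720 replicates 1 to 3, set beside 5.55, 2.19 and 6.99 TPM across Vehicle replicates 1 to 3. Among the 5 genes past the filter, the closest pair was Krt7 and Krt18, with a difference of 0.81, and the farthest Krt7 and Upk1b, with 2.11, while the partners Krt8 and Krt18 were at 1.18.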

How the data were processed

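The authors deposited 1 table of TPM values for 6 libraries, 3 per group, and groups were taken from the sample titles. The submitters' processing notes name STAR 2.6.0 and GRCm38, and the sources used here do not give the counting program, its strand setting, the gene lengths or the handling of reads with several matches. Gene names and positions came from GENCODE M21 on GRCm38, which matched 51633 of 51912 rows.

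Each value times a gene length fell on whole multiples of 1 step per library, so reads were recovered, within 0.01 of a whole read, with the annotated exon bases as length for 15754 genes and the smallest length that gave whole reads for 11959. That smallest length can understate the reads of low genes.

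limma 3.58.1 in R 4.3.3 (lmFit, eBayes with a mean trend) was fitted on log2(TPM + 1), keeping the 9287 genes that averaged 1 TPM or more, and its p-values were adjusted over these by Benjamini-Hochberg (threshold 0.05). Fold changes on this scale understate those of low genes. Copies were sought with BLAST 2.17.0. Other steps used Python 3.11.15, pandas 2.3.3, numpy 2.4.6, scipy 1.17.1 and matplotlib 3.10.9.

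The members, 14 other gene lists and alternatives were chosen with earlier results of these data known. Named genes were the members, Krt5, the 5 most abundant of each list that is not a cell type list, and the 5 most like Krt18 and Upk1b, and others are named after their values were seen. Alternatives were the pseudocount, the filter, scaling, library weights, the replicate block, leaving out libraries and voom, which was added after seeing the data. Libraries of a group differed beyond sampling noise (chi-square divided by its degrees of freedom, median gene, 18.0 to 42.1), so each counted as 1 replicate.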

Additional observations from a re-analysis of the deposited data

How the results depend on the processing

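In all 16 other settings, 0 genes were called over all genes, with 498 to 2056 at an unadjusted p under 0.05. Of 80 refitted fold changes of the 5 genes, 0 passed limma's test (lowest adjusted p = 0.214, Upk1b with library weights) and 5 changed sign. When 1 library was left out, the log2 fold change of Krt18 ranged from −0.66 to 0.89 and was negative without SRT1720 1 (−0.66) and without Vehicle 3 (−0.34). That of Krt7 ranged from −1.21 to 0.60 and was positive without SRT1720 3 (0.60), Vehicle 1 (0.04) and Vehicle 2 (0.06). Krt8, Krt19 and Upk1b kept their sign but not their size, with ranges of 0.02 to 1.30, 0.0054 to 0.83 and 0.25 to 1.5 when 1 library was left out. The median over the 5 genes was 0.01 to 0.70, and the count of the 10 genes without overlap was 1 to 3 with 1 library left out, 4 without SRT1720 1 and Vehicle 2, and 3 without SRT1720 3 and Vehicle 3. Fewer libraries make an overlap less likely by construction, and over the 27713 genes above 0 the share without overlap was 12.3% with all libraries, 16.8% to 21.0% with 1 left out and 29.7% to 30.1% with 2.

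With the replicate number of the titles as a block, 0 genes were called and the median over the 5 genes was 0.32. Same-numbered libraries had correlations of deviations from their group means of −0.20, −0.26 and 0.79 over 9287 genes, so the numbers were not taken as pairs, and only replicate 3 correlated best with its own number. Depth limits Krt20, Upk2, Upk3a and Upk3b, none of which exceeded 25 reads in a library.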
